A study of Homo sapiens with 6 samples.

Results

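The numbered RBM genes carry the letters RBM, for RNA-binding motif, followed by a number. They share a naming root with RBM3, the gene that was silenced here. Members were the protein-coding genes of the count table whose symbol is RBM followed by a digit, without RBM3, with a mean CPM (the count divided by the library total and scaled to a common size) of at least 1 over the 6 libraries. Of 37 such genes in the table, 27 met the rule. T24 is a cell line derived from an invasive urothelial carcinoma of the bladder, and all libraries came from this line. The 3 siRBM3 libraries (replicates 3, 4 and 5) came from cells given a mixture of siRNAs against RBM3, and the 3 control libraries (replicates 1, 3 and 5) from cells given a non-targeting siRNA. Both groups received 25 nM siRNA with Lipofectamine 2000 in serum-free medium for 4.5 h, recovered overnight in full medium and were harvested the next day. Nothing in the sources used here says that the samples of a group were separate cultures, so p-values measure only the spread between these samples, which may be technical. The question was whether the transcripts of the relatives in name moved when RBM3 was silenced.

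Most proteins of this set bind RNA through an RNA recognition motif, a small fold that holds single-stranded RNA on a flat sheet. A short stretch of that fold, named RNP1, carries aromatic residues that stack against the bases. The shared name does not imply a shared task. Members assemble spliceosomes, choose splice sites, guide the methylation of adenosine in mRNA, feed transcripts to the nuclear exosome, build ribosomes in the nucleolus or govern the stability of mRNAs. RBM3 itself is a small cold-inducible protein with 1 RNP1 match in its coding sequence, and its closest relative by sequence, CIRBP, lies outside the numbered names.

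The RNP1 stretch was compared between RBM3 and the members in which it was found. Coding sequences of the canonical transcripts (GENCODE v44 placed on GRCh37) were translated and searched for RNP1, which matched 0.473% of 19656 protein-coding transcripts and 8 of the 27 members. RBM19, RBM28 and RBM47 had 2 matches each. The coding bases of RBM3 and of all matches in members are shown 5′ to 3′ on the sense strand, so that the members can be compared with RBM3. Capitals mark the bases that are identical to RBM3 at the same position.
RBM3: AGGGGTTTTGGTTTCATCACCTTC
RBM19: AaGGGTTTTGcaTTCATCACCTTC
RBM19, second match: AGaGGcTTcGGcTTtgTggaCTTC
RBM23: AaaGGTTaTGGTTTCATCACgTTC
RBM42: AaGGGcTacGGcTTCgTCAgCTTC
RBM39: AaGGGaTaTGGaTTtATtACaTTt
RBM10: cGGGGcTTcGccTTCgTCgagTTt
RBM5: cGtGGTTTcGccTTCgTggagTTt
RBM28: cGaGGcTTTGGcTatgTCACtTTt
RBM28, second match: cGcGGTTTTGGTTTtgTtcagTTC
RBM47: cGcGGcTacGccTTCgTCAtgTaC
RBM47, second match: cGcGGcTTcGccTTCgTggagTaC
Of the 24 bases, 21 were identical to RBM3 in the first match of RBM19 and 15 in its second, 20 in RBM23, 17 in RBM42, 16 in RBM39, 14 in RBM10 and 13 in RBM5. The first and second match had 15 and 16 identical bases in RBM28 and 13 and 12 in RBM47. Outside the numbered names, the match had 18 identical bases in CIRBP and in RBMX, 16 in RBMS1, 14 in RBMS3 and 12 in RBMS2. The search pattern fixes some of the bases, so part of the identity was set by the search. The stretch lies at chrX:48433984-48434007 on the plus strand in RBM3 and at chr12:114385196-114385219 and chr12:114296617-114296640 on the minus strand in RBM19. The minus strand also holds the matches of RBM28 (chr7:127979808-127979831 and chr7:127978362-127978385) and RBM47 (chr4:40440557-40440580 and chr4:40440308-40440331). In RBM23 (chr14:23371589-23373490, minus strand) and RBM39 (chr20:34302309-34304682, minus strand) it is split by an intron. RBM42 has it at chr19:36128188-36128211, RBM10 at chrX:47034426-47034449 and RBM5 at chr3:50137973-50137996, all on the plus strand. A match is a description of the sequence, and its absence from the other members says only that this pattern is not in the transcript searched.

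Total counts on genes ranged from 23603992 to 45098612 per library, and the deepest was siRBM3 replicate 3. That library also stood apart in mitochondrial counts, with 9.40% against 1.63% to 4.15% in the others. Of the epithelial markers, KRT7, KRT8, KRT18 and KRT19 were at 188 CPM or more in every library, whereas KRT5, KRT20, UPK1B, UPK3A and CDH1 stayed below 1 CPM. The 4 leukocyte markers together reached at most 0.619 CPM, and of the endothelial markers VWF stayed below 1 CPM while CDH5 was at 28.7 CPM or more in every library. Summed marker levels differed between the groups without overlap, as did 19.9% of the 15099 single genes tested below. The 13 epithelial and urothelial genes summed to 5159 to 6360 CPM in control and 3964 to 4661 CPM in siRBM3 libraries, and the 3 mesenchymal genes (VIM, CDH2 and FN1) to 22678 to 25120 CPM and 25892 to 28095 CPM. Most of the first sum came from KRT7 (means of 3222 CPM in control and 2396 CPM in siRBM3 libraries). Most of the second came from FN1 (21471 and 24402 CPM). EPCAM, GATA3 and UPK2 had higher means in siRBM3 libraries, and the other epithelial and urothelial genes had lower ones. The part of these marker levels in the results on the members was not tested. In bulk RNA, fewer cells with a transcript and less of it per cell cannot be told apart.

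RBM3 was examined first. Its level, scaled by the trimmed mean of M-values (TMM) as are all CPM below, was 225, 367 and 300 CPM in control replicates 1, 3 and 5. In siRBM3 replicates 3, 4 and 5 it was 54.1, 90.0 and 58.3 CPM, with no overlap between the groups (two-sided exact permutation p = 0.1, which is the lowest value possible with 3 samples against 3). RBM3 had a log2 fold change of -2.14, with a 95% interval from -2.70 to -1.58 and, by edgeR's quasi-likelihood test (a count model fitted to all genes at once), a false discovery rate (FDR, Benjamini-Hochberg) of 0.0822.

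None of the 27 members was called after the silencing of RBM3, but in edgeR neither was RBM3 itself. A gene was called when its change was at least 1.5-fold at an FDR below 0.01. The edgeR test called 0 of 27 and 0% of the 15099 genes tested, and RBM3 missed the threshold at an FDR of 0.0822. Its count of calls therefore cannot set the members apart from RBM3 or from other genes. DESeq2 and limma-voom also called 0 members, and they called 1.22% and 0% of the genes they tested. The log2 fold changes of the members ran from -0.34 for RBM23 to 0.61 for RBM24, with a median of 0.04 and an SD of 0.23, beside a median of -0.01 and an SD of 0.33 over all genes tested. In 15 members the value was above 0 and in 12 below, and 48.5% of all genes tested were above 0. Every one of the 27 intervals lay above the upper bound of RBM3 (-1.58), the lowest lower bound being -0.59 for RBM18. RBM3 was the target of the siRNAs, and the share of all genes with such an interval was not computed. This count therefore does not set the members apart from other genes.

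At an unadjusted p under 0.05 the edgeR test gave 3 members, 11.1% of the set, against 13.1% of all genes tested. Of these 3, RBM43 and RBM4 were higher in siRBM3 cells (6.56% of all genes were) and RBM23 was lower (6.58% of all genes were). The control and siRBM3 libraries did not overlap in 5 members, 18.5% of the set, where 19.9% of all genes tested showed no overlap. RBM43 and RBM4 lay higher throughout in siRBM3 libraries, as did 9.99% of all genes, and RBM23, RBM42 and RBM17 lay lower, as did 9.93%. The shares among the members were close to the background in both counts. The smallest Benjamini-Hochberg FDR of a member was 0.248 in edgeR and 0.158 in DESeq2, both for RBM23.

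**Figure D1:**
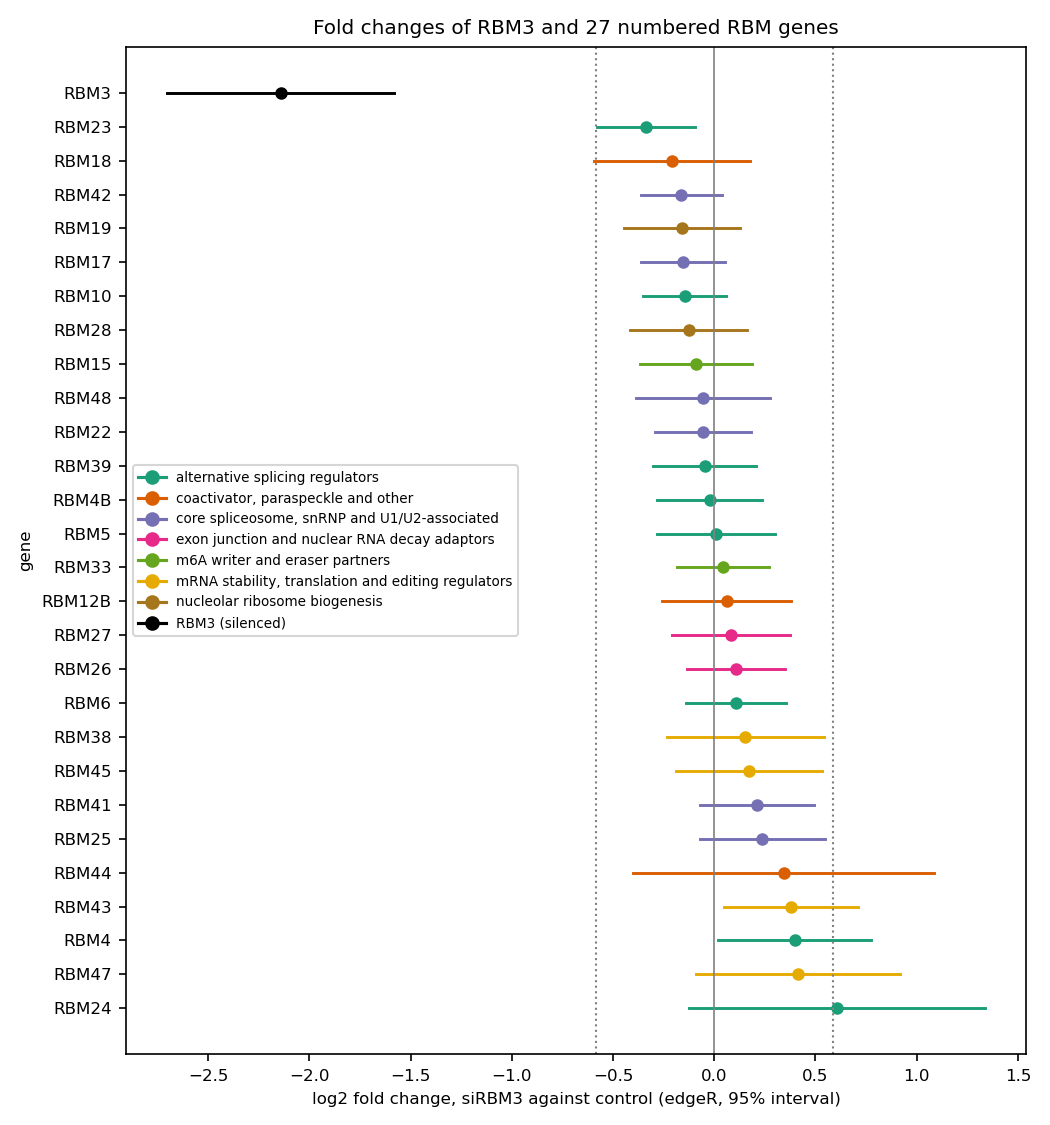
Log2 fold change of siRBM3 against control (x axis) for RBM3 and the 27 numbered RBM genes (y axis), with points for the edgeR estimate, bars for its 95% interval, colours for the role and dotted lines at 1.5-fold in each direction. RBM3 stands alone at -2.14, while the members lie between -0.34 and 0.61.

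The precision of these values differed from gene to gene. Standard errors of the log2 fold change ran from 0.09 for RBM42 to 0.32 for RBM44, with a median of 0.13 beside 0.17 over all genes tested. For 21 members (77.8%) the 95% interval lay within 1.5-fold in both directions, which held for 48.8% of all genes tested. The genes tested include some below the floor of 1 CPM that the members had to reach, so these sets are unlike in level. The same limit holds for the standard errors and for the SD of the log2 fold changes. For the other 6 members, RBM18, RBM44, RBM43, RBM4, RBM47 and RBM24, a change of 1.5-fold was not excluded by the interval. RBM24 and RBM44 had the fewest reads, with 21 to 54 counts and 28 to 54 counts per library.

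Levels of different genes were compared per kilobase of the canonical transcript. On this scale RBM3 had the highest mean of the 28 genes in control cells, at 69.2 CPM per kb (libraries 52.3 to 85.5). RBM42 and RBM39 followed with control means of 60.5 and 60.4 CPM per kb (57.7 to 62.2 and 56.3 to 66.8), so the order of these 3 genes could not be separated. In siRBM3 cells RBM3 had a mean of 15.7 CPM per kb (12.6 to 20.9), below both in every library, with rank 9 among neighbours that overlapped it, such as RBM4B (14.8 to 15.5). RBM42 and RBM39 ranged over all libraries from 51.9 to 62.2 and from 54.1 to 66.8 CPM per kb. RBM10 came next with 32.3 to 38.1 CPM per kb, without overlap with RBM42 or RBM39. RBM22 and RBM17 overlapped each other (23.3 to 27.5 and 21.9 to 26.2 CPM per kb). Likewise RBM6, RBM5 and RBM26 overlapped between 16.7 and 21.7 CPM per kb. At the other end, RBM47, RBM24 and RBM44 stayed below 1 CPM per kb in every library. Values and ranks on this scale depend on the canonical transcript used, of 4298 bases for RBM3, 1692 for RBM42 and 5060 for RBM39. The values of RBM23 and RBM28 depend on long canonical transcripts of 10007 and 15507 bases.

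**Figure D2:**
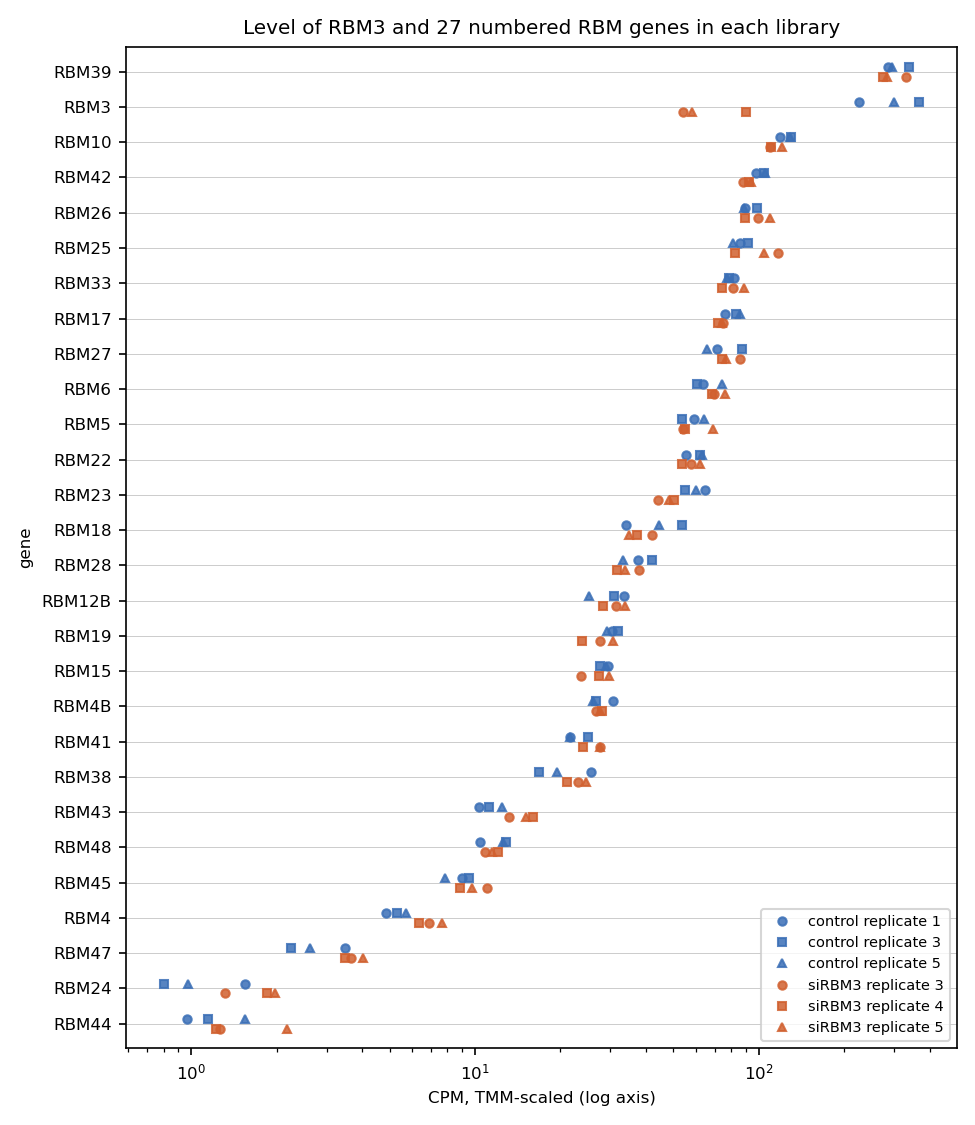
TMM-scaled CPM (x axis, log scale) of RBM3 and the 27 numbered RBM genes (y axis, ordered by mean level), with 1 symbol per library, blue for control and orange for siRBM3. The groups are clearly apart for RBM3 (225 to 367 against 54.1 to 90.0 CPM) and overlap in 22 of the 27 members. They do not overlap in 18.5% of the members and in 19.9% of all genes tested.

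Of the 8 alternative splicing regulators measured, 0 were called, 4 had a log2 fold change above 0 and 4 below, and the median was -0.01. RBM23 (ENSG00000100461, chr14:23362413-23388391, minus strand), a paralog of RBM39, had the lowest value of the set. Control replicates 1, 3 and 5 had 64.6, 55.0 and 60.2 CPM of RBM23. In siRBM3 replicates 3, 4 and 5 it was at 44.0, 50.2 and 48.3 CPM, so that the groups did not overlap. Mean levels of RBM23 were 59.9 ± 4.77 CPM for control and 47.5 ± 3.20 CPM for siRBM3 (SD, n = 3 each). This gave a log2 fold change of -0.34 with a standard error of 0.11, an edgeR p of 0.0125 before adjustment and a Benjamini-Hochberg FDR of 0.248. Without siRBM3 replicate 3, the library with the largest mitochondrial share, the log2 fold change was -0.28 and the edgeR p was 0.0501. The unadjusted edgeR p of RBM23 was under 0.05 in 12 of 13 alternative fits, among them 5 of the 6 with a library left out. With the replicate number as a block, the log2 fold change of RBM23 was -0.32, with an edgeR p of 0.00902 before adjustment and a Benjamini-Hochberg FDR of 0.0757. In that fit only replicates 3 and 5 compare the groups, because control replicate 1 and siRBM3 replicate 4 have no same-numbered partner. This limit holds for all values with the replicate block below. The part of the composition of siRBM3 replicate 3 in the result was not tested.

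RBM39 (ENSG00000131051, chr20:34289269-34330234, minus strand) is a splicing factor that also acts as a coactivator of transcription, and it was the member with the most reads. It was measured at 285, 338 and 294 CPM in control and at 330, 274 and 282 CPM in siRBM3 libraries. siRBM3 replicates 4 and 5 lay below the control range and replicate 3 within it, and the log2 fold change of -0.05 had an interval from -0.30 to 0.21. The log2 ratio of RBM23 to RBM39 was -2.35 ± 0.25 for control and -2.63 ± 0.24 for siRBM3 (SD, n = 3 each), with overlap between the groups (two-sided exact permutation p = 0.3, Benjamini-Hochberg adjusted p = 0.5 over 5 such ratios).

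RBM4 (ENSG00000173933, chr11:66406138-66435845, plus strand), which regulates splicing and translation, had 4.85, 5.31 and 5.72 CPM in control libraries. It had 6.92, 6.35 and 7.66 CPM in siRBM3 libraries, each above the control range. RBM4 thus had a log2 fold change of 0.40 with a standard error of 0.16, an edgeR p of 0.0409 before adjustment and a Benjamini-Hochberg FDR of 0.355. Without control replicate 1 or 3 or siRBM3 replicate 3 or 5, the edgeR p of RBM4 lay between 0.0826 and 0.133. Its count is uncertain, since other annotated genes cover 32.8% of its exon bases and 21.9% of its 75-base windows also occur in transcripts of RBM14-RBM4 or RBM4B. Its near copy RBM4B was measured at 26.0 to 30.7 CPM in control and at 26.7 to 27.9 CPM in siRBM3 libraries, with a log2 fold change of -0.02 (interval -0.28 to 0.24). The log2 ratio of RBM4 to RBM4B was -2.39 ± 0.24 for control and -1.98 ± 0.15 for siRBM3 (SD, n = 3 each), without overlap (two-sided exact permutation p = 0.1, the lowest possible, and adjusted p = 0.5 over the 5 ratios).

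RBM5, RBM6 and RBM10 are related splicing regulators, and RBM5 and RBM6 are neighbours on chromosome 3 in a region often lost in lung cancer. RBM5 (ENSG00000003756, chr3:50126352-50156454, plus strand) had 59.1, 53.7 and 64.1 CPM in control and 53.9, 55.1 and 69.0 CPM in siRBM3 libraries. The groups overlapped, with a log2 fold change of 0.01 and an interval from -0.28 to 0.30. Other annotated genes, antisense ones among them, cover 21.2% of the exon bases of RBM5. RBM6 had a log2 fold change of 0.11 and RBM10 of -0.15, both with intervals that held 0. Neither the ratio of RBM5 to RBM6 nor that of RBM5 to RBM10 separated the groups (two-sided exact permutation p = 0.3 and 0.4, adjusted p = 0.5 for both).
RBM24, a splicing regulator known from muscle, had the highest value of the set on few reads. It was measured at 1.55, 0.803 and 0.978 CPM in control and at 1.31, 1.86 and 1.98 CPM in siRBM3 libraries, so that siRBM3 replicate 3 fell inside the control range. The log2 fold change of 0.61 had an interval from -0.13 to 1.34. For RBM24 it was 0.92 without control replicate 1 (edgeR p of 0.0197 before adjustment) and 0.87 with the replicate block (edgeR p of 0.0194 before adjustment). With all libraries and no block, the edgeR p of RBM24 was 0.0932 before adjustment. It was under 0.05 in 2 of 13 alternative fits, and the highest was 0.252. Of all genes, 7.44% were higher at that p without control replicate 1 and 11.4% with the replicate block.

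Of the 6 members that belong to the spliceosome or its small nuclear ribonucleoproteins, 0 were called and the median log2 fold change was -0.06, with 2 values above 0 and 4 below. RBM42, found with the U4/U6.U5 particle, had 97.6, 104 and 105 CPM in control and 87.8, 92.5 and 94.1 CPM in siRBM3 libraries. RBM17, which acts in recognition of the 3′ splice site, had 76.2, 83.4 and 85.9 CPM in control and 74.7, 71.8 and 74.1 CPM in siRBM3 libraries. The groups of both genes were apart, with siRBM3 lower, but the log2 fold changes were small, at -0.16 and -0.15, with intervals that held 0. RBM22, a protein of the catalytic core, had a log2 fold change of -0.06 (interval -0.29 to 0.18).
RBM25 (ENSG00000119707, chr14:73525240-73590607, plus strand), a splicing factor that works with the U1 particle, had the highest value of this group. It was measured at 85.5, 91.4 and 80.9 CPM in control and at 117, 82.4 and 104 CPM in siRBM3 libraries. Replicates 3 and 5 of siRBM3 lay above the controls and replicate 4 lay among them. RBM25 had a log2 fold change of 0.24 (interval -0.07 to 0.55), and it was 0.12 without siRBM3 replicate 3 and 0.37 without siRBM3 replicate 4. With the replicate number as a block the value was 0.36, with an edgeR p of 0.00391 before adjustment and a Benjamini-Hochberg FDR of 0.0474. With all libraries and no block, the edgeR p of RBM25 was 0.116 before adjustment. It was under 0.05 in 3 of 13 alternative fits, and the highest was 0.401. RBM48 and RBM41, of which the first takes part in splicing of minor introns, had log2 fold changes of -0.06 and 0.21, and their groups overlapped.

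**Figure D3:**
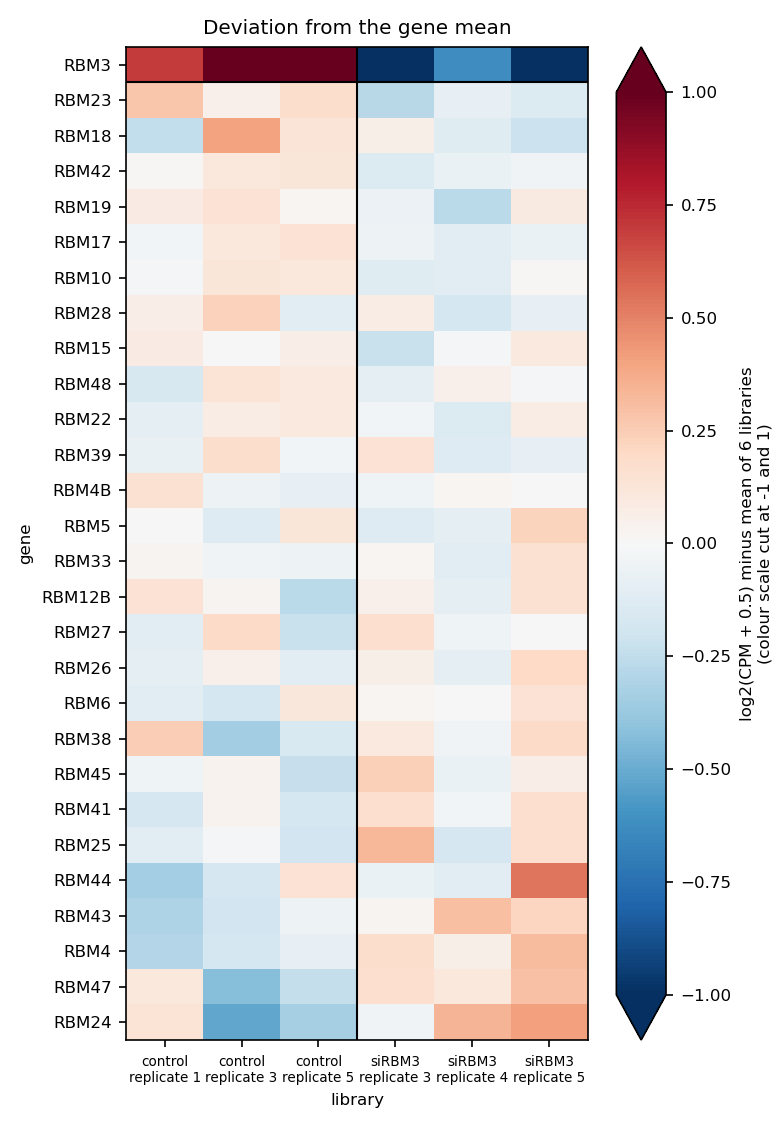
Colour map of log2(CPM + 0.5) minus the mean of the 6 libraries for each gene (rows, RBM3 on top, then members by log2 fold change) in each library (columns, control left of the line). RBM3 is high in all 3 control and low in all 3 siRBM3 libraries. The groups do not overlap in 18.5% of the members and in 19.9% of all genes tested.

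The 4 members grouped as regulators of mRNA stability, translation or editing all had values above 0 (as did 48.5% of all genes tested), with a median log2 fold change of 0.27, and 0 were called. RBM43 (ENSG00000184898, chr2:152104454-152118377, minus strand) had 10.4, 11.2 and 12.5 CPM in control and 13.2, 16.1 and 15.1 CPM in siRBM3 libraries. The groups did not overlap, with means of 11.4 ± 1.07 CPM for control and 14.8 ± 1.46 CPM for siRBM3 (SD, n = 3 each). RBM43 had a log2 fold change of 0.38 with a standard error of 0.14, an edgeR p of 0.0300 before adjustment and a Benjamini-Hochberg FDR of 0.322. Without control replicate 1 or 3 or siRBM3 replicate 4 or 5, its edgeR p lay between 0.0669 and 0.109, and with the replicate block it was 0.111. No exon base of RBM43 lies in another annotated gene.
RBM47, a cofactor of the editing enzyme APOBEC1, had 3.48, 2.25 and 2.63 CPM in control and 3.65, 3.47 and 4.03 CPM in siRBM3 libraries. The groups touched at control replicate 1 and siRBM3 replicate 4, and the log2 fold change was 0.41 (interval -0.09 to 0.92). For RBM47 it was 0.60 without control replicate 1 (edgeR p of 0.0249 before adjustment) and 0.28 without control replicate 3. With the replicate block it was 0.65 (edgeR p of 0.0142 before adjustment). With all libraries and no block, the edgeR p of RBM47 was 0.0972 before adjustment. It was under 0.05 in 2 of 13 alternative fits, and the highest was 0.275. RBM38, a target of p53 that binds mRNAs and alters their stability, had 25.7, 16.9 and 19.4 CPM in control and 23.2, 21.1 and 24.7 CPM in siRBM3 libraries. RBM38 had a log2 fold change of 0.15 (interval -0.23 to 0.54, edgeR p of 0.390 before adjustment). It was 0.34 without control replicate 1 (edgeR p of 0.0394 before adjustment) and 0.027 without control replicate 3. With the replicate block it was 0.40 (edgeR p of 0.00674 before adjustment). The unadjusted edgeR p of RBM38 was under 0.05 in 2 of 13 alternative fits, and the highest was 0.875. RBM45 was at 0.17.

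RBM19 and RBM28 act in ribosome assembly in the nucleolus. RBM19 had 30.5, 31.9 and 29.3 CPM in control and 27.6, 23.8 and 30.6 CPM in siRBM3 libraries, and its log2 fold change was -0.16 (interval -0.45 to 0.13). RBM28 was at -0.13 (interval -0.42 to 0.16), and both genes had overlapping groups. Leaving out 1 library at a time moved RBM19 between -0.25 (without siRBM3 replicate 5) and -0.068 (without siRBM3 replicate 4), and RBM28 between -0.21 (without control replicate 5) and -0.040 (without control replicate 3).
RBM15 recruits the enzyme complex that methylates adenosine to its targets, and RBM33 works with the demethylase ALKBH5. RBM15 had a log2 fold change of -0.09 (interval -0.37 to 0.19), and RBM33 one of 0.04 (interval -0.18 to 0.27).
RBM26 and RBM27 are zinc finger proteins linked to decay by the nuclear exosome. Their log2 fold changes were 0.11 and 0.08, and the log2 ratio between them was 0.31 ± 0.13 for control and 0.33 ± 0.17 for siRBM3 (SD, n = 3 each). The count of RBM27 is uncertain, since 44.8% of its exon bases lie in another annotated gene on the same strand.
The remaining members were RBM18, RBM12B and RBM44. RBM18 varied more between control libraries (34.0, 53.6 and 44.4 CPM) than between siRBM3 libraries (42.1, 37.1 and 34.9 CPM), and its log2 fold change was -0.21 (interval -0.59 to 0.18). For RBM18 it was -0.37 without control replicate 1 (edgeR p of 0.0247 before adjustment) and -0.042 without control replicate 3. With the replicate block it was -0.35 (edgeR p of 0.00657 before adjustment). With all libraries and no block, the edgeR p of RBM18 was 0.249 before adjustment. It was under 0.05 in 2 of 13 alternative fits, and the highest was 0.790. Of all genes, 8.64% were lower at that p without control replicate 1 and 13.5% with the replicate block. RBM12B, of whose exon bases 46.6% lie in other annotated genes, was at 0.06 and RBM44 at 0.34 (0.035 without siRBM3 replicate 5), both with overlapping groups.

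**Figure D4:**
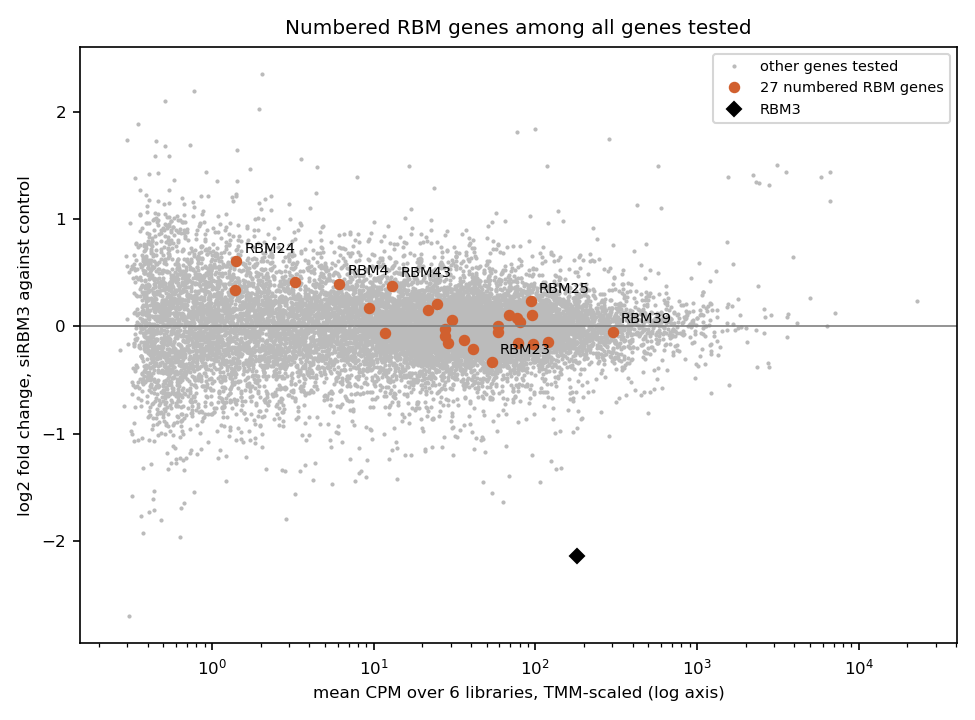
Log2 fold change of siRBM3 against control (y axis) against mean TMM-scaled CPM over the 6 libraries (x axis, log scale) for the 15099 genes tested, with the 27 numbered RBM genes in orange and RBM3 as a black diamond. The members lie within the cloud of all genes, while RBM3 lies at -2.14, near the lower end of the range over all genes tested (-2.70 to 2.35).

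The order of the libraries within each group was compared between RBM3 and the members. RBM3 ran from replicate 1 to 5 to 3 in control cells, from low to high, and from replicate 3 to 5 to 4 in siRBM3 cells. The same order was found in 4 members (14.8%) among controls, against 23.1% of all genes tested, and in 4 members (14.8%) among siRBM3 libraries, against 15.3%. With 3 libraries per group few orders are possible, so these counts cannot tell whether the members follow RBM3. A correlation over the 6 libraries was not computed, because RBM3 places them in separate clusters of 3. One library stood out: siRBM3 replicate 5 held the highest value of 11 members (40.7%) and the lowest of 0, whereas over all genes tested it held the highest in 14.4% and the lowest in 15.5%. The summed level of the 27 members was 1431, 1540 and 1459 CPM in control and 1500, 1367 and 1500 CPM in siRBM3 libraries, with overlap between the groups.

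The other 10 numbered RBM genes lay under the floor. RBM44 and RBM24 were the members just inside, with unscaled means of 1.39 and 1.42 CPM, and RBM7 and RBM34 lay just outside with 0.609 and 0.505 CPM. RBM8A, RBM12, RBM14, RBM14-RBM4, RBM15B and RBM46 were listed at 0 in every library under the identifiers matched here. RBM8A encodes a core protein of the exon junction complex that every cell uses, so its 0 is not read as absence of the transcript. The zeros of RBM12, RBM14, RBM14-RBM4, RBM15B and RBM46 are not read as absence either. The count table holds 8012 identifiers that were not matched, and whether reads of these genes lie under them was not tested. RBM11 and RBM20 had at most 8 and 2 counts in a library. RBM7, an adaptor of the nuclear exosome, had a log2 fold change of 0.12 (interval -0.53 to 0.77) and RBM34 one of -0.19 (interval -1.04 to 0.67), on at most 29 and 17 counts per library.

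Relatives of RBM3 outside the numbered names were also measured. CIRBP, the cold-inducible protein closest to RBM3, had 104, 105 and 120 CPM in control and 123, 112 and 123 CPM in siRBM3 libraries. The groups overlapped, and the log2 fold change was 0.12 (interval -0.10 to 0.35). All 6 tested genes of this list (CIRBP, RBMX, RBMX2, RBMS1, RBMS2 and RBMS3) had values above 0, as did 48.5% of all genes tested. Their median was 0.21, and edgeR called 0 of them and 0% of all genes tested. RBMXL1, also on the list, was at 0 in every library under the identifier matched here and was not tested. RBMS3, which binds the 3′ ends of mRNAs, had 27.1, 27.1 and 26.4 CPM in control and 34.0, 35.3 and 33.7 CPM in siRBM3 libraries. RBMS3 was at 0.35 on the log2 scale, with a standard error of 0.10, an edgeR p of 0.00697 before adjustment and a Benjamini-Hochberg FDR of 0.211. RBMX, an hnRNP protein encoded on the X chromosome, had a log2 fold change of 0.22 (edgeR p of 0.0445 before adjustment, Benjamini-Hochberg FDR of 0.366), also without overlap. These 2 genes are 33.3% of the 6 tested. Over all genes tested, 13.1% passed an unadjusted p of 0.05 in edgeR and 19.9% showed no overlap. Over 13 alternatives the unadjusted p stayed under 0.05 in 13 for RBMS3 and in 5 for RBMX, where the highest was 0.189 without siRBM3 replicate 5.

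Genes of the complexes in which members work were read from 4 lists. Of 32 genes tested, 0 were called, 3 passed an unadjusted p of 0.05 in edgeR (9.38%, against 13.1% of all genes tested), and the median log2 fold change was -0.09. Values above 0 were found in 9 of the 32 (28.1%), against 48.5% of all genes tested. All 6 genes of the exon junction complex list were below 0, with a median of -0.16, and EIF4A3, its helicase, was at 103, 104 and 103 CPM in control and at 84.9, 93.0 and 87.0 CPM in siRBM3 libraries. EIF4A3 had a log2 fold change of -0.23 (edgeR p of 0.0277 before adjustment, Benjamini-Hochberg FDR of 0.315). Of the 14 genes of the U1, U2 and catalytic spliceosome, 10 were below 0, and PRPF19, a ubiquitin ligase of the catalytic spliceosome, was at -0.33 (edgeR p of 0.00904 before adjustment, Benjamini-Hochberg FDR of 0.229). In the adenosine methyltransferase list 3 of 7 genes were above 0, and ZC3H13, a subunit that anchors the complex in the nucleus, was at 0.22 (edgeR p of 0.0395 before adjustment, Benjamini-Hochberg FDR of 0.353). In the list of nuclear exosome adaptors 2 of 5 genes were above 0, between -0.34 for ZCCHC8 and 0.30 for ZFC3H1, and 0 passed an unadjusted p of 0.05. Over the 13 alternatives the unadjusted p stayed under 0.05 in 13 for PRPF19, in 8 for EIF4A3 and in 4 for ZC3H13. With each of the 6 libraries left out in turn it did so in 6, 2 and 0 fits, with highest values of 0.0462, 0.0944 and 0.149.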

How the data were processed

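RNA of 3 control and 3 siRBM3 samples of T24 cells was sequenced (stranded polyA libraries, single end). Per the labels, the authors used BBDuk for trimming, STAR for alignment to hg19/GRCh37, Picard for duplicates and featureCounts for counting. The deposited values are raw counts for 63677 Ensembl identifiers. No source used here gives the annotation release, the strand setting or what became of duplicates, so overlapping and antisense genes are uncertain. Symbols came from GENCODE v44 on GRCh37, which matched 55665 identifiers, and the other 8012 held 0.626% to 0.731% of the counts.

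Genes were filtered with filterByExpr (minimum count 10, minimum total 15), scaled by TMM and tested in edgeR 4.0.16 (quasi-likelihood, older form, robust dispersions), with Benjamini-Hochberg adjustment over 15099 genes. Calls needed 1.5-fold and an FDR below 0.01, as in the study's own DESeq2 analysis. Alternatives were limma-voom (limma 3.58.1), DESeq2 1.42.0, other scalings, filters, floors, a replicate block and each library left out. R 4.3.3, Python 3.11.15 and scipy 1.17.1 were used. The steps were tested on simulated data.

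The members, roles and lists were chosen with earlier results of these data known. Genes described were RBM3, RBM39, RBM25 and RBM5, members past an unadjusted p of 0.05 or without overlap, the extremes of each role, and list genes past that p. Other members are given beside them by value, chosen after their values were seen. Intervals are 95% intervals from edgeR. Windows of 75 bases, the read length, were compared between transcripts. Within groups, libraries differed by a chi-square per degree of freedom of 27.7 to 141, so none was counted as a repeat of another.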

Additional observations from a re-analysis of the deposited data

How the results depend on the processing

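At 1.5-fold and an FDR below 0.01, 0 members were called under every alternative run, as were 0 in the unblocked edgeR fit of all libraries at an FDR of 0.05, or of 0.1 with no fold threshold. With the replicate block 5 members (RBM25, RBM18, RBM38, RBM23 and RBM47) had an FDR under 0.1, 18.5% of the set against 14.8% of all genes. Over all genes, where edgeR called 0, DESeq2 called 159, edgeR without the filter on low counts 279 and edgeR with the replicate block 336, and with each library left out 0 to 1. RBM3, whose FDR of 0.0822 missed the threshold, passed it with DESeq2 (log2 fold change -2.14), without the filter (-2.13) and with the replicate block (-2.57). The number of members higher at an unadjusted p under 0.05, 2 in all libraries, was 0 with library size only (4.05% of all genes), 5 with the replicate block (18.5%, against 11.4% of all genes) and 0 to 3 with each library left out (4.35% to 7.44% of all genes). It was 0 without control replicate 3 or siRBM3 replicate 5 and 1 without siRBM3 replicate 3. The number lower, 1 in all libraries, was 2 with the block (7.41%, against 13.5% of all genes) and 0 to 2 with each library left out (4.51% to 8.64% of all genes), with 0 without siRBM3 replicate 3 and 2 without control replicate 1. The cause was not tested. The median log2 fold change of the members, 0.044, moved by less than 0.071 (the SD of the members' median deviation between libraries of a group) but changed sign. It was -0.0031 with library size only, -0.0071 over members with a mean of at least 5 CPM, 0.099 with the replicate block, -0.018 without siRBM3 replicate 5, -0.0060 without control replicate 5 and 0.11 without siRBM3 replicate 4. Values near 0 changed sign. RBM5 was at -0.0038 with limma-voom and -0.034 with library size only, and between -0.12 and 0.073 with each library left out. RBM33 was at -0.0031 with library size only and between -0.025 and 0.11 with each library left out, RBM39 between -0.14 and 0.031, and RBM27 between -0.0060 and 0.21. The numbers 3 and 5 occur in both groups, and the deviations of same-numbered libraries from their group means correlated at 0.53 and 0.09 across 15099 genes. Control replicate 3 with siRBM3 replicate 5 gave -0.30, and control replicate 5 with siRBM3 replicate 3 gave -0.13. No source used here says that the numbers mark pairs, so the block was kept as an alternative. Control replicate 1 and siRBM3 replicate 4 have no partner, so in the block fit only replicates 3 and 5 compare the groups. Its values are therefore not independent of the fits without control replicate 1 or without siRBM3 replicate 4. RBM24 and RBM44, with at most 54 counts per library, had the widest intervals.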

Other observations

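The direction of the members differed with their level, a split at a mean of 15 CPM that was chosen after the values were seen. Of the 7 members below it (RBM48, RBM43, RBM45, RBM4, RBM47, RBM24 and RBM44), 6 had a log2 fold change above 0, with a median of 0.38. Of the 20 members at or above it, 9 were above 0, with a median of -0.04. Over all genes tested 51.8% of those below 15 CPM and 46.0% of the others were above 0, with medians of 0.02 and -0.02. RBM43 and RBM4 are in the first group and RBM23 is in the second. No test was made of this difference.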
